A study of Mus musculus with 6 samples.

Results

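The 46 genes described here code for the core of the phosphoinositide 3-kinase (PI3K), AKT and mTOR signalling route, and they were chosen by gene symbol from 22939 genes in the table of counts. They comprised 4 catalytic and 5 regulatory subunits of PI3K, the adaptors Pik3ap1 and Irs2, 7 proteins that oppose PI3K or AKT, PDK1 with AKT and GSK3, the TSC complex with Rheb, both mTOR complexes and their inhibitors, the direct outputs of mTORC1, and the Rag, folliculin and GATOR1 proteins that carry nutrient signals. Of the 46, 24 promote signalling, 17 restrain it, and 5 have mixed roles (Pik3r1, Pik3r2, Pik3r3, Gsk3a and Gsk3b). The 6 RNA-seq libraries were made from mouse regulatory T (Treg) cells, 3 from ctrl-Treg and 3 from Sora-Treg, the latter differentiated in the presence of sorafenib (Sora), a multikinase inhibitor used against liver cancer. Naive CD4+ T cells were taken from lymph nodes and spleen of Foxp3-GFP mice, which carry GFP knocked in at Foxp3 and have a C57BL/6J background. Both groups received plate-bound anti-CD3, anti-CD28, TGF-β1, anti-IFN-γ and anti-IL4, Sora was present from the start of culture in one of them, and GFP+ cells were sorted. These were cells induced in culture and not Treg cells taken from a tissue. The Sora concentration and duration for these libraries, the vehicle, and the age of the Foxp3-GFP mice were not given in the sources used here, nor was it stated whether the 3 libraries of a group came from separate cultures or animals. The p-values below therefore measure the spread between these libraries, which may be technical.

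PI3K phosphorylates a membrane lipid to make PIP3, which brings PDK1 and AKT to the membrane, and lipid phosphatases remove that signal again. AKT relieves the brake that the TSC complex puts on the small GTPase Rheb, and Rheb then switches on mTORC1, which drives protein synthesis when the Rag GTPases report that amino acids are present. In T cells the route is known for driving growth and effector differentiation, its strength is known to influence the formation and stability of Treg cells, and mTORC2 is known for phosphorylating AKT.

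Total counts per library ranged from 30727686 to 37717324. Values within a gene are given as CPM, counts scaled to a common library total, after TMM scaling, on which 3 counts corresponded to between 0.0762 and 0.0989 CPM. Of the 46 genes, 45 passed the filter on low counts, as did 13463 genes in all. Foxp3 lay between 252 and 278 CPM and Cd4 between 678 and 724 CPM in the 6 libraries, so the defining markers of the labelled cells were present. The libraries ctrl-Treg 1 and 2 stood apart in the sum of 6 myeloid markers, though not in Cd68, one of them. The sum was 92.4 and 92.1 CPM there against 24.6 in ctrl-Treg 3 and 22.1, 42.5 and 20.6 in the Sora-Treg libraries. Where a result changed without both of them, the log2 fold change is given in that form too. That fit had ctrl-Treg 3 as its only ctrl-Treg library, so it holds no spread within ctrl-Treg. Its p-values and calls are therefore not given. In bulk RNA, fewer cells of a type and less RNA per cell cannot be told apart. Scaling by library size alone moved the median of all genes by -0.12 on the log2 scale, and directions below hold relative to the median gene.

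Most of the 45 tested genes differed between the groups by a small amount, and they went both ways. By edgeR's quasi-likelihood test with Benjamini-Hochberg adjustment over all tested genes, 15 rose in Sora-Treg, 15 fell and 15 did not pass at an adjusted p under 0.05. Of all tested genes 59.6% passed, 29.7% upward and 29.9% downward, so the 66.7% of members that passed lay near the background. Under scaling by library size alone 12 members rose and 22 fell, where 21.3% of all genes rose and 41.7% fell. Their log2 fold changes (Sora-Treg over ctrl-Treg) ranged from -0.92 for Pik3r3 to 2.43 for Pik3ap1, with a median of 0.01 where that of all genes was -0.00. The median absolute log2 fold change was 0.21 for the members and 0.28 for all genes. Neither this comparison nor the shares that follow were matched for level. Beyond 2-fold, 2 members passed, Pik3ap1 and Pik3cg, or 4.44% of those tested against 11.3% of all genes (6.3% upward and 4.97% downward). A change of at least 0.5 on the log2 scale was passed by 7 members, or 15.6%, against 25.2% of all genes. The CPM values of the groups did not overlap for 31 members, or 68.9%, against 63.7% of all genes.

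**Figure D1:**
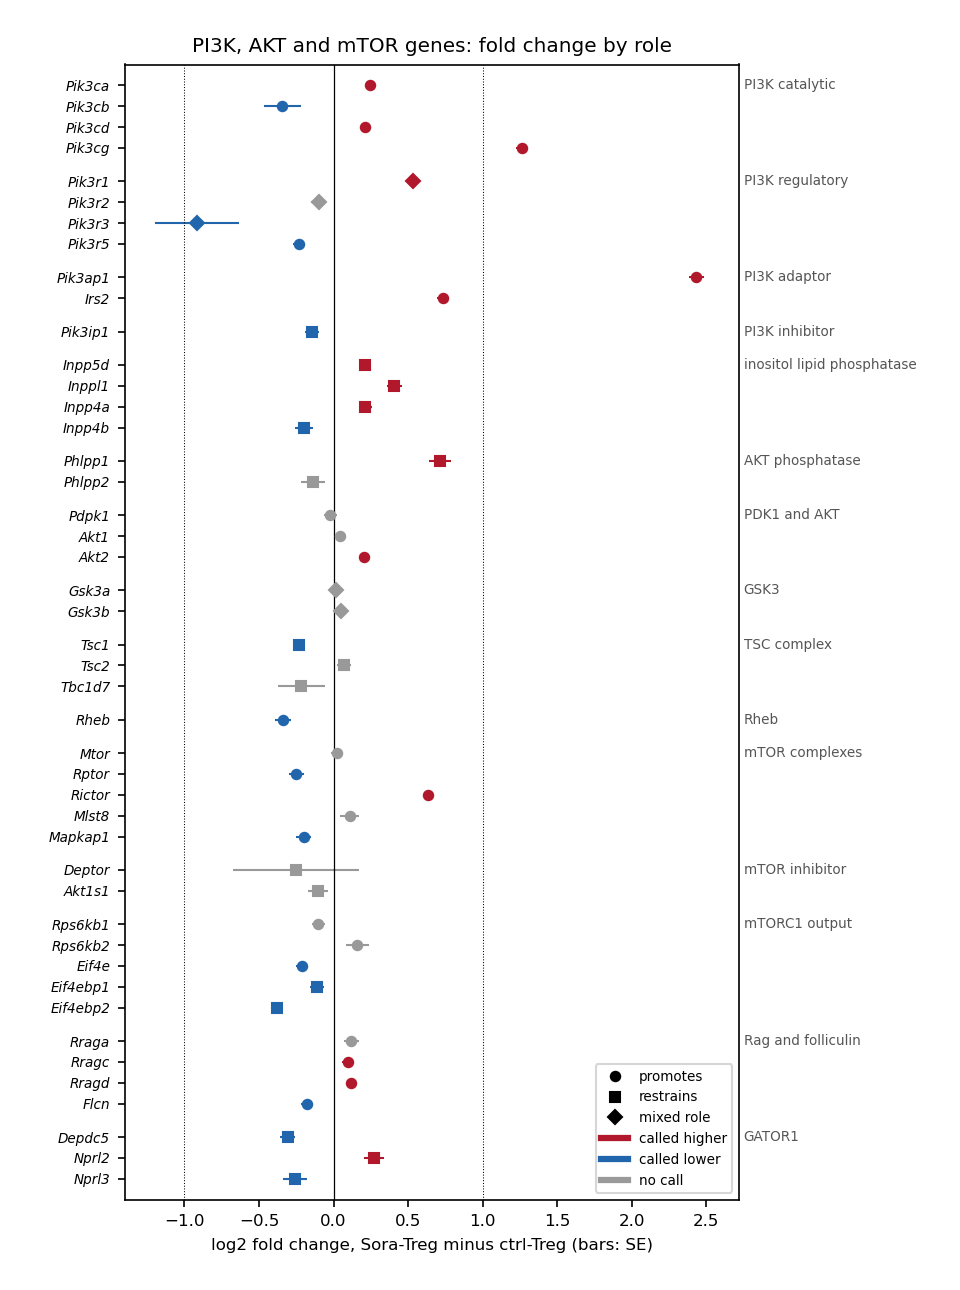
Log2 fold change of each tested member (Sora-Treg over ctrl-Treg; points, with bars of 1 SE from edgeR's fit over 3 libraries per group), arranged by role in the pathway, with symbols for promoting, restraining and mixed genes and colours for the call. Pik3ap1 at 2.43 and Pik3cg at 1.26 stand to the right of all other members, and Pik3r3 at -0.92, with a wide bar, stands farthest to the left.

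The genes that promote signalling and those that restrain it overlapped in their changes. Of 23 tested promoting genes, 9 rose and 7 fell, with a median log2 fold change of 0.10 that became -0.02 under scaling by library size alone. The median of all genes was -0.00 in the main fit and -0.12 under library size alone, so both class medians shift with it. Of 17 restraining genes, 5 rose and 7 fell, with a median of -0.14, and that median was negative under each scaling tried. In shares, 39.1% of promoting genes rose and 30.4% fell, and 29.4% of restraining genes rose and 41.2% fell. Of all tested genes 29.7% rose and 29.9% fell, and differences of this size rest on few genes. Under scaling by library size alone 7 promoting genes rose and 10 fell, and 4 restraining genes rose and 9 fell, where 21.3% of all genes rose and 41.7% fell. Without ctrl-Treg 2 the restraining genes that fell were 4, where 27.2% of all genes fell. Of the 5 genes of mixed role, Pik3r1 rose, Pik3r3 fell and 3 did not pass.

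**Figure D2:**
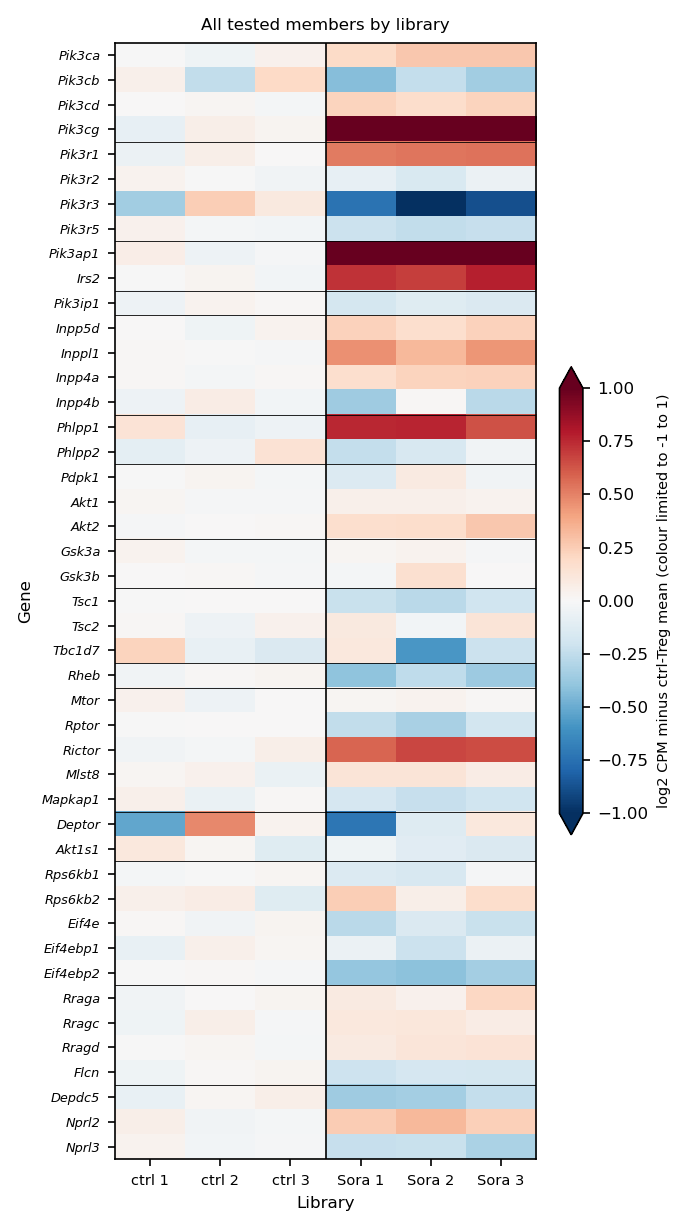
Heat map of the 45 tested members (rows, by role) in the 6 libraries (columns), coloured by the log2 ratio of CPM to the mean of the 3 ctrl-Treg libraries. The rows of Pik3ap1, Pik3cg, Irs2, Phlpp1, Rictor and Pik3r1 are of 1 colour across the 3 Sora-Treg libraries, and most other rows stay pale.

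Levels differed between the genes far more than between the groups. On the FPKM scale, which is per length, Pik3cd was the most abundant member with a mean of 97.7 over the 6 libraries, followed by Eif4ebp1 at 94.1, Akt1 at 56.7, Gsk3a at 56.6 and Eif4ebp2 at 51.5. Akt1 and Gsk3a differed by less than their spread, since Akt1 had 58.1 ± 0.937 FPKM in ctrl-Treg and Gsk3a 58.6 ± 1.43 (SD, n = 3). At the bottom were Pik3cb at 1.37, Pik3r3 at 0.257, Pik3r6 at 0.0760 and Deptor at 0.0605 FPKM. The median coefficient of variation of the members in CPM was 2.98% in ctrl-Treg and 3.38% in Sora-Treg, against 4.88% and 5.72% for all tested genes. The comparison was not matched for level, so it is not read as a trait of these genes.

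Among the adaptors, which link receptors to PI3K, both genes rose. Pik3ap1, which codes for the B-cell adaptor for PI3K (BCAP), had 17.8, 16.3 and 16.8 CPM in ctrl-Treg and 94.4, 92.2 and 88.4 CPM in Sora-Treg. The groups lay far apart, with a 5.40-fold higher mean in Sora-Treg (log2 fold change 2.43 ± 0.05 SE, edgeR adjusted p = 6.28e-21). Irs2, which codes for an adaptor of the insulin and IGF1 receptors, had 70.7, 72.1 and 69.4 CPM in ctrl-Treg and 117, 114 and 121 CPM in Sora-Treg. The lowest Sora-Treg library thus stood well above the highest ctrl-Treg library (0.73 ± 0.04 SE, edgeR adjusted p = 9.88e-14). Pik3ap1 is known from B cells and myeloid cells, so the markers of both were set beside it. The 4 B-cell markers summed to between 1.53 and 2.39 CPM in ctrl-Treg and between 0.251 and 0.365 CPM in Sora-Treg, the opposite direction to Pik3ap1. Without the ctrl-Treg libraries 1 and 2, the log2 fold change was 2.45 for Pik3ap1 and 0.76 for Irs2.

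**Figure D3:**
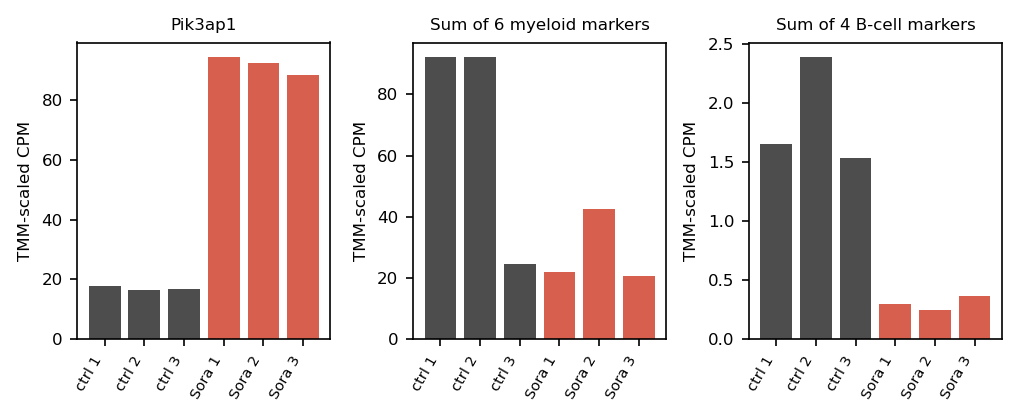
CPM of Pik3ap1 and the summed CPM of 6 myeloid and 4 B-cell markers in each of the 6 libraries (1 bar per library, each panel on its own linear axis from 0). Pik3ap1 lies between 88.4 and 94.4 CPM in Sora-Treg and between 16.3 and 17.8 CPM in ctrl-Treg, while the B-cell sum is lower in all 3 Sora-Treg libraries and the myeloid sum is highest in ctrl-Treg 1 and 2.

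The promoters of the 3 genes with the largest increases are shown. RefSeq windows of 300 bases (250 before the annotated start and 50 after it, on the gene's strand, build GRCm38.p6) existed for 42 of the 46 genes, 58 windows in all. Both strands were searched for CACGTG, an E-box bound by MYC and TFEB family proteins, TGTTTAC, bound by FOXO proteins, which AKT keeps out of the nucleus, TGANTCA, bound by AP-1, and TTCNNNGAA, bound by STAT proteins. Capitals mark the match. Pik3ap1 lies on the minus strand at chr19:41385053-41385352 with an E-box that begins 172 bases before the start, Pik3cg on the minus strand at chr12:32208421-32208720 with the FOXO letters in reverse complement, GTAAACA, 92 bases before the start, and Irs2 on the minus strand at chr8:11008880-11009179 with an E-box 44 bases before the start.
Pik3ap1: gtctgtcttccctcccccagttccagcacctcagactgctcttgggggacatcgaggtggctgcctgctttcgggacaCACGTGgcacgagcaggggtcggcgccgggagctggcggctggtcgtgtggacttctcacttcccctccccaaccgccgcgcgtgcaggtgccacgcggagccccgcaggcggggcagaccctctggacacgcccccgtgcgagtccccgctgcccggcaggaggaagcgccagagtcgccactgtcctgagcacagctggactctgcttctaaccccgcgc
Pik3cg: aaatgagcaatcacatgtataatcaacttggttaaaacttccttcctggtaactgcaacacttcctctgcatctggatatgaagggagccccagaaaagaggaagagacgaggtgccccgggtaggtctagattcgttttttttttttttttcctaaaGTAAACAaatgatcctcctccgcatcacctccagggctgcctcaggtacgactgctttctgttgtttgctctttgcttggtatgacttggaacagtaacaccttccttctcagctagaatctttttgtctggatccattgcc
Irs2: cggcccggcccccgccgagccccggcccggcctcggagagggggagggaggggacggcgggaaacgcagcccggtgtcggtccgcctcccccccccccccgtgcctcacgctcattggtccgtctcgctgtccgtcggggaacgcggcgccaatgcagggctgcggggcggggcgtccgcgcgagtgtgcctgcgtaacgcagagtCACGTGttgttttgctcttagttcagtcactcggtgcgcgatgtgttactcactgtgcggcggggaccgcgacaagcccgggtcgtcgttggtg
A second annotated start of Pik3cg had none of the 4 motifs in its window. CACGTG stood in 7.15% of 32851 promoter windows and in 6 of the 58 member windows, 1 each of Eif4e, Irs2, Pik3ap1, Rheb, Rragc and Tbc1d7. TGTTTAC stood in 3.65% of all windows and in 4 member windows (of Akt1, Mapkap1 and Pik3cg), TGANTCA in 7.81% and in 1 (Pik3ca), and TTCNNNGAA in 8.3% and in 5 (Akt2, Eif4e, Mtor, Pdpk1 and Rraga). The windows of Mapkap1 overlap and hold the same GTAAACA, which was counted in each. Nothing is read from the number of windows with the FOXO letters. The 6 genes with CACGTG moved differently, since Pik3ap1, Irs2 and Rragc rose, Rheb and Eif4e fell, and Tbc1d7 did not pass. A match is a run of letters and not a binding site.

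**Figure D4:**
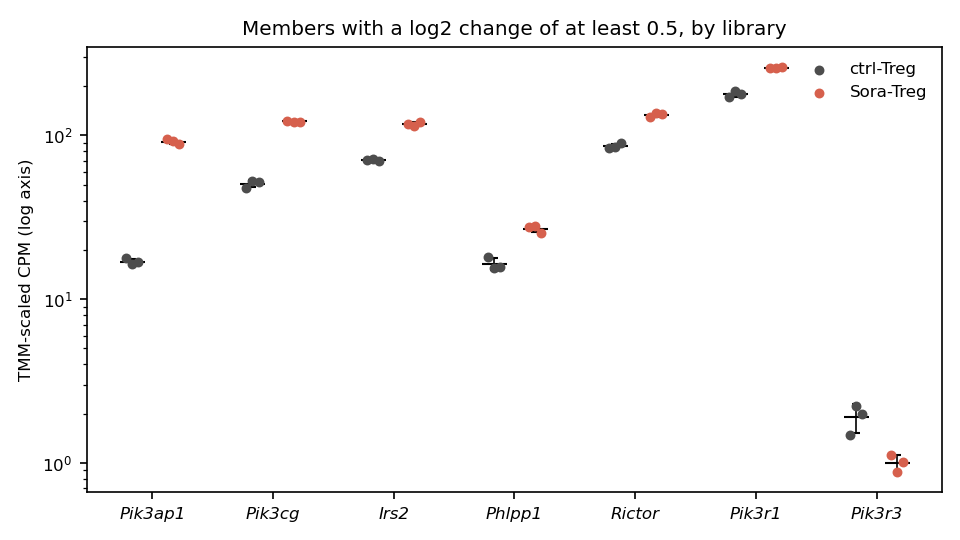
CPM in each of the 3 ctrl-Treg and 3 Sora-Treg libraries (points, log axis) with the group mean (horizontal line) and SD (vertical bar) for the 7 members that passed the test with a change of at least 0.5 on the log2 scale. Pik3ap1, Pik3cg, Irs2, Phlpp1, Rictor and Pik3r1 are higher and Pik3r3 is lower in every Sora-Treg library than in any ctrl-Treg library.

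Among the catalytic subunits, p110γ changed most. Pik3cg, which codes for it and whose protein acts mainly below G protein-coupled receptors, had 48.0, 52.7 and 51.6 CPM in ctrl-Treg and 123, 120 and 122 CPM in Sora-Treg. The groups were separated by more than the whole level of ctrl-Treg, a 2.40-fold difference (1.26 ± 0.04 SE, edgeR adjusted p = 1.98e-17). Pik3cd, which codes for p110δ, the chief catalytic subunit of T cells, rose by 0.21 on the log2 scale (edgeR adjusted p = 2.42e-07), and Pik3ca, for the broadly expressed p110α, rose by 0.25 (adjusted p = 5.48e-06). Pik3cb, for p110β, fell by 0.34 on the log2 scale (adjusted p = 0.0209) with overlapping groups, 6.73 to 9.14 CPM in ctrl-Treg and 5.93 to 6.78 CPM in Sora-Treg. Its call was lost without ctrl-Treg 1 (-0.32, adjusted p = 0.0713), ctrl-Treg 3 (-0.25, 0.130), Sora-Treg 1 (-0.30, 0.0668) or Sora-Treg 3 (-0.34, 0.0554) and with DESeq2 (0.0513).

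As a share of the summed FPKM of the 4 catalytic subunits within a library, Pik3cd held 80.2% ± 0.696 in ctrl-Treg and 75.7% ± 0.521 in Sora-Treg (SD, n = 3), and Pik3cg went from 5.64% ± 0.266 to 11.0% ± 0.0870. Pik3cd was thus the main catalytic transcript in all 6 libraries, and the Pik3cg shares of the groups did not overlap. Pik3ca held 12.8% ± 0.468 and 12.4% ± 0.485, which overlapped. In the 7 families examined, 12 of 18 shares did not overlap between the groups, and each of the 12 gave p = 0.1 in an exact two-sided permutation test of 3 against 3, the smallest value that design allows (0.15 after adjustment over the 18). Shares of a family add up to the whole, so in the AKT, S6K, 4E-BP and GSK3 families both shares are the same measurement. The 12 are therefore not separate results. In CPM, the groups did not overlap for 63.7% of all genes.

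Of the regulatory subunits, the class IA genes diverged. Pik3r1, which codes for p85α and its shorter forms, both stabilizing and restraining the catalytic subunit, had 172, 186 and 180 CPM in ctrl-Treg and 257, 259 and 261 CPM in Sora-Treg. All 3 Sora-Treg libraries were higher and close to one another (0.53 ± 0.03 SE, edgeR adjusted p = 1.77e-12). Pik3r3, which codes for p55γ, was scarce, with 1.47, 2.23 and 2.0 CPM in ctrl-Treg and 1.12, 0.878 and 1.01 CPM in Sora-Treg. Its groups did not overlap, and it fell (-0.92 ± 0.28 SE, edgeR adjusted p = 0.00721) on 28 to 81 counts per library. Without the ctrl-Treg libraries 1 and 2 the value was -0.996. Pik3r2, for p85β, did not pass (-0.10, adjusted p = 0.0732), but passed downward under upper quartile scaling (-0.14, 0.0161), under library size alone (-0.22, 4.15e-04) and with limma on the FPKM scales (-0.20 to -0.21, adjusted p from 0.00166 to 0.00579).

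Within the class IA regulatory family, Pik3r1 held 51.4% ± 1.37 of the summed FPKM in ctrl-Treg and 62.3% ± 0.816 in Sora-Treg (SD, n = 3), and Pik3r2 held 47.5% ± 1.58 and 37.2% ± 0.771. Pik3r1 led in all 6 libraries, by less in ctrl-Treg, where its lowest share was 49.8% against 49.3% for Pik3r2. Of the genes for the partners of p110γ, Pik3r5, which codes for p101, fell by 0.23 on the log2 scale (edgeR adjusted p = 5.33e-05), from between 65.1 and 68.6 CPM to between 56.1 and 57.2 CPM. The FPKM ratio of Pik3cg to Pik3r5 went from 0.425 ± 0.0316 to 1.19 ± 0.00241. Pik3r6, for p84, had 2 to 22 counts per library, was the 1 member below the filter and was not tested, with 0.102, 0.275 and 0.219 CPM in ctrl-Treg and 0.362, 0.690 and 0.0562 CPM in Sora-Treg. The alternatives that kept it gave log2 fold changes from 0.04 (without Sora-Treg 2, edgeR adjusted p = 0.970) to 1.41 (without Sora-Treg 3, 0.0489). In the latter it came above the filter through Sora-Treg 1 and 2 alone, so nothing is read from that value, and in the others it did not pass.

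**Figure D5:**
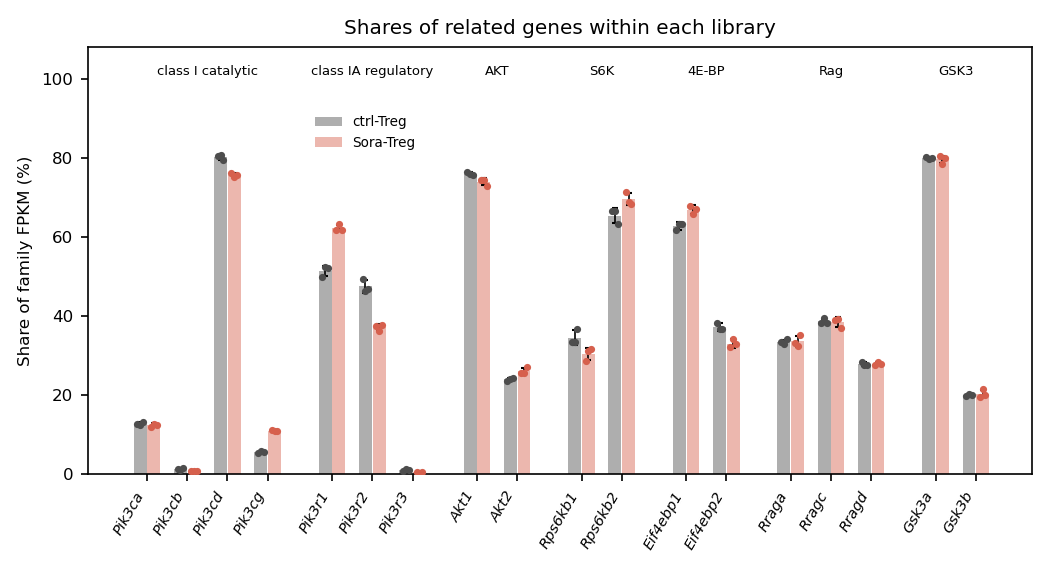
Share (percent) of each gene in the summed FPKM of its family, in each of the 3 ctrl-Treg and 3 Sora-Treg libraries (points) with the group mean (bars) and SD (lines). The mean share of Pik3cg is 5.64% in ctrl-Treg and 11.0% in Sora-Treg and that of Pik3r1 is 51.4% and 62.3%. The GSK3 shares and those of Rraga, Rragc and Rragd (Rragb is left out) overlap between the groups.

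The proteins that oppose PI3K and AKT also split. Phlpp1, which codes for a phosphatase of AKT, had 18.0, 15.4 and 15.8 CPM in ctrl-Treg and 27.6, 27.8 and 25.4 CPM in Sora-Treg. It rose without overlap (0.71 ± 0.07 SE, edgeR adjusted p = 2.31e-08), while its relative Phlpp2 did not pass (-0.14, adjusted p = 0.148). Phlpp2 was at -0.29 without the ctrl-Treg libraries 1 and 2, and at -0.25 under library size alone (edgeR adjusted p = 0.00872). Inppl1, which codes for SHIP2, a phosphatase that takes a phosphate from PIP3, had 41.1, 40.6 and 40.5 CPM in ctrl-Treg and 55.8, 51.1 and 55.2 CPM in Sora-Treg, so every Sora-Treg library was higher (0.41 ± 0.05 SE, adjusted p = 1.40e-07). Inpp5d, for SHIP1 of blood cells, rose by 0.21 on the log2 scale (adjusted p = 1.05e-05; 0.0589 with limma on unfiltered FPKM). Inpp4a, which acts on the next lipid in the chain, also rose by 0.21 (adjusted p = 2.24e-04; 0.0608 under scaling by library size alone). Its relative Inpp4b fell by 0.20 on the log2 scale (edgeR adjusted p = 0.00541), with Sora-Treg 2 at 175 CPM inside the ctrl-Treg range of 168 to 182 CPM. The call was lost without ctrl-Treg 2 (-0.16, adjusted p = 0.0605), with DESeq2 (0.188) and with robust fitting (0.206). Without ctrl-Treg 1 and 2 together the value for Inpp4b was -0.17. Pik3ip1, which codes for a membrane protein that inhibits PI3K, had 48.6, 51.5 and 50.7 CPM in ctrl-Treg and 44.6, 46.2 and 45.5 CPM in Sora-Treg. The groups were apart by little (-0.15 ± 0.05 SE, edgeR adjusted p = 0.00959), and without ctrl-Treg 2 the call was lost (-0.12, adjusted p = 0.0513). Without ctrl-Treg 1 and 2 together the value for Pik3ip1 was -0.16.

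The kinases at the centre of the route changed little. Akt2 had 125, 126 and 127 CPM in ctrl-Treg and 142, 142 and 152 CPM in Sora-Treg, higher in all 3 (0.21 ± 0.04 SE, edgeR adjusted p = 2.36e-05), a call lost with limma on the FPKM scales (0.09, adjusted p from 0.0632 to 0.0857). Akt1, the most abundant AKT transcript, did not pass (0.05, adjusted p = 0.206; with limma on the FPKM scales it passed downward, at -0.07 with adjusted p from 0.0269 to 0.0411), with 168 to 172 CPM in ctrl-Treg and 174 to 176 CPM in Sora-Treg, and its share of the summed FPKM of both genes was 76.0% ± 0.383 and 73.9% ± 0.900 (SD, n = 3). Pdpk1, which codes for PDK1, did not pass either (-0.02, adjusted p = 0.686; -0.14 and 0.0064 under library size alone). Of the GSK3 genes, whose kinases AKT inhibits, Gsk3b had 120, 120 and 119 CPM in ctrl-Treg and 118, 134 and 120 CPM in Sora-Treg. Only Sora-Treg 2 stood above the ctrl-Treg range by more than 1 CPM, and neither Gsk3b (0.05, adjusted p = 0.323) nor Gsk3a (0.01, adjusted p = 0.730) passed, although Gsk3a passed downward under library size alone (-0.10, adjusted p = 0.0134).

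Between AKT and mTORC1, Rheb and 1 of the 3 genes of the TSC complex fell. Tsc1, which codes for hamartin of the TSC complex, had 62.0, 62.3 and 62.4 CPM in ctrl-Treg and 53.4, 51.5 and 54.1 CPM in Sora-Treg. The ctrl-Treg values hardly differed from one another and all lay above Sora-Treg (-0.23 ± 0.04 SE, edgeR adjusted p = 6.17e-05). Rheb, which codes for the GTPase that the complex restrains, had 41.6, 42.9 and 43.3 CPM in ctrl-Treg and 32.3, 35.8 and 33.1 CPM in Sora-Treg, again without overlap (-0.34 ± 0.05 SE, adjusted p = 9.79e-06). Tsc2, for tuberin, did not pass (0.07, adjusted p = 0.229), but passed without Sora-Treg 2 (0.12, adjusted p = 0.0335); the gene Pkd1 overlaps it and had up to 206% of its counts. Tbc1d7, for the third member of the complex, did not pass (-0.22, adjusted p = 0.246), but did without Sora-Treg 1 (-0.39, adjusted p = 0.0403).

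The subunits that set the mTOR complexes apart moved in opposite directions. Rictor, which codes for the defining subunit of mTORC2, had 83.8, 84.8 and 89.7 CPM in ctrl-Treg and 129, 136 and 135 CPM in Sora-Treg. All Sora-Treg libraries were higher by more than the spread of either group (0.63 ± 0.04 SE, edgeR adjusted p = 1.48e-12). Rptor, for the defining subunit of mTORC1, fell by 0.25 on the log2 scale (adjusted p = 1.77e-04), from between 45.1 and 45.5 CPM to between 36.3 and 39.9 CPM. Mapkap1, for the mTORC2 subunit SIN1, fell as well, by 0.20 (adjusted p = 0.00157), so the mTORC2 genes did not move together. The kinase itself, Mtor (0.02, adjusted p = 0.610; -0.09 and 0.0475 under library size alone), and Mlst8, whose protein is in both complexes (0.11, adjusted p = 0.164), did not pass. The ratio of Rictor to Rptor on the FPKM scale was 1.61, 1.62 and 1.71 in ctrl-Treg and 2.93, 3.27 and 2.94 in Sora-Treg, a description of both genes that adds no test.

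Of the inhibitors bound to mTOR, Deptor was near the limit of detection at 10 to 28 counts per library, with 0.381, 0.769 and 0.564 CPM in ctrl-Treg and 0.330, 0.502 and 0.590 CPM in Sora-Treg. The groups overlapped, and a difference was not detectable at this depth (-0.25 ± 0.43 SE, edgeR adjusted p = 0.632). Akt1s1, which codes for PRAS40, an AKT substrate, did not pass (-0.11, adjusted p = 0.170), but did without ctrl-Treg 3 (-0.16, adjusted p = 0.0444) and under library size alone (-0.22, 0.00537).

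Among the outputs of mTORC1, the translation factor and its repressors were lower. Eif4ebp2, which codes for a repressor that binds eIF4E until mTORC1 phosphorylates it, had 103, 105 and 103 CPM in ctrl-Treg and 79.0, 77.8 and 81.9 CPM in Sora-Treg. No Sora-Treg library came near the ctrl-Treg values (-0.38 ± 0.04 SE, edgeR adjusted p = 7.36e-09). Eif4e, for the cap-binding factor it holds, fell by 0.21 on the log2 scale (adjusted p = 7.75e-05). Eif4ebp1 fell by 0.11 (edgeR adjusted p = 0.0397) with overlapping groups, 90.9 to 99.2 CPM in ctrl-Treg and 82.2 to 91.8 CPM in Sora-Treg. It did not pass without ctrl-Treg 2 (-0.08, edgeR adjusted p = 0.193), ctrl-Treg 3 (-0.10, 0.0999) or Sora-Treg 2 (-0.06, 0.256), or with DESeq2 (0.0715). Without ctrl-Treg 1 and 2 together the value for Eif4ebp1 was -0.13. The FPKM of Eif4e over the sum of both repressors was 0.0634 ± 0.00295 in ctrl-Treg and 0.0633 ± 0.00589 in Sora-Treg (SD, n = 3), with overlapping values.

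The S6 kinases, which phosphorylate ribosomal protein S6, did not pass. Rps6kb1 had a log2 fold change of -0.10 (edgeR adjusted p = 0.0620) and passed in 8 of 18 alternatives, among them upper quartile scaling (-0.14, adjusted p = 0.0114), library size alone (-0.22, 2.55e-04) and the fit without Sora-Treg 3 (-0.15, 0.0134). Its overlapping neighbour Rnft1, with up to 68.0% as many counts, rose by 0.58 on the log2 scale. Rps6kb2 had 0.16 (edgeR adjusted p = 0.0696) and passed without Sora-Treg 2 (0.21, adjusted p = 0.0230). Without the ctrl-Treg libraries 1 and 2 its value was 0.28. As shares of the summed FPKM of both, Rps6kb1 held 34.6% ± 1.93 in ctrl-Treg and 30.5% ± 1.54 in Sora-Treg (SD, n = 3), without overlap.

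The Rag GTPases bring mTORC1 to the lysosome, and the Rag genes among the members, Rraga, Rragc and Rragd, moved by 0.12 or less on the log2 scale. Rragb, counted with the other pathway genes, fell by 0.48 (edgeR adjusted p = 0.0172), from between 3.81 and 4.53 CPM to between 2.57 and 3.37 CPM. Rragd rose by 0.12 (edgeR adjusted p = 0.00506), a call lost under upper quartile or library size scaling. Without the ctrl-Treg libraries 1 and 2 its value was 0.13. Rragc rose by 0.10 (edgeR adjusted p = 0.0348), and its direction turned to -0.02 under scaling by library size alone. The call was also lost without ctrl-Treg 1, ctrl-Treg 3, Sora-Treg 1 or Sora-Treg 2 (edgeR adjusted p from 0.0591 to 0.147). Without ctrl-Treg 1 and 2 together the value for Rragc was 0.11. Rraga had 0.12 (adjusted p = 0.0510) and passed without Sora-Treg 1 (0.13, adjusted p = 0.0466) or Sora-Treg 2 (0.16, adjusted p = 0.0153). The shares of Rraga, Rragc and Rragd in their sum, which leaves out Rragb, overlapped between the groups. Flcn, which codes for folliculin, an activator of RagC and RagD, had 70.6, 73.0 and 74.0 CPM in ctrl-Treg and 62.9, 64.6 and 64.3 CPM in Sora-Treg, lower in all 3 (-0.18 ± 0.04 SE, adjusted p = 5.13e-04).

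GATOR1, the complex that switches the Rag GTPases off when amino acids are lacking, had members in both directions. Depdc5 had 49.0, 52.3 and 53.8 CPM in ctrl-Treg and 40.3, 40.8 and 43.8 CPM in Sora-Treg. It fell without overlap (-0.31 ± 0.05 SE, edgeR adjusted p = 1.58e-05). Nprl3 fell by 0.26 on the log2 scale (edgeR adjusted p = 0.0104), and its value was -0.24 without the ctrl-Treg libraries 1 and 2. The overlapping gene Mpg had up to 81.4% as many counts as Nprl3. Nprl2 rose by 0.27 (adjusted p = 0.00105), from 21.1 to 22.5 CPM up to 25.6 to 27.1 CPM, and the overlapping gene Cyb561d2, with up to 58.4% as many counts, rose by 0.39 as well; whether reads were shared between them was not tested.

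The summed FPKM of the promoting members divided by that of the restraining members was 1.46 ± 0.0181 in ctrl-Treg and 1.74 ± 0.0418 in Sora-Treg (SD, n = 3), higher in all 3 Sora-Treg libraries. This ratio rests on few abundant genes: without Eif4ebp1 and Eif4ebp2 it was 3.19 ± 0.0332 and 3.48 ± 0.0179, and without Pik3cd as well it was 2.49 ± 0.0226 and 2.70 ± 0.0253. It is a sum of transcript levels and not a measure of signalling.

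Other genes of the same pathways, from a list of 76 of which 74 passed the filter, also moved both ways: 22 rose, 29 fell and 23 did not pass (68.9% called, against 59.6% of all genes). Under scaling by library size alone 13 rose and 37 fell, where 21.3% of all genes rose and 41.7% fell. Beyond 2-fold, 6 of the other pathway genes passed, or 8.11% of those tested against 11.3% of all genes. Sgk1, which codes for a kinase that mTORC2 activates, had 104, 98.8 and 102 CPM in ctrl-Treg and 450, 476 and 462 CPM in Sora-Treg, all 3 far above ctrl-Treg (2.19 ± 0.03 SE, edgeR adjusted p = 8.12e-24). Gab2, for another PI3K adaptor, rose from between 9.63 and 11.0 CPM to between 27.8 and 30.9 CPM (1.52 ± 0.08 SE, adjusted p = 8.35e-14). Grb10, for an adaptor that dampens insulin receptor signalling, fell from between 4.45 and 4.70 CPM to between 0.659 and 1.22 CPM (-2.36 ± 0.22 SE, adjusted p = 4.49e-09).

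The other 3 act on mTORC1 from upstream. Castor1, for an arginine sensor that restrains mTORC1, rose from between 18.1 and 18.8 CPM to between 48.6 and 50.7 CPM (1.44 ± 0.05 SE, edgeR adjusted p = 3.77e-16). Sesn2, for a leucine sensor that also restrains it, fell from between 94.2 and 97.7 CPM to between 41.4 and 46.1 CPM (-1.15 ± 0.05 SE, adjusted p = 5.78e-16). Ddit4l, a relative of the stress-induced mTORC1 inhibitor REDD1, fell from between 2.36 and 2.67 CPM to between 0.125 and 0.494 CPM (-3.07 ± 0.35 SE, adjusted p = 1.04e-07), on 4 to 15 counts per Sora-Treg library. It came above the filter on low counts through ctrl-Treg, where it was high, so its fold change and p-value are not read as support. The sensor genes Castor1 and Sesn2 thus changed in opposite directions, and the members also went both ways. All 8 tested inositol phosphatases outside the members passed, 5 upward and 3 downward. Of the 9 Ragulator and lysosomal sensing genes 1 rose and 3 fell, or 44.4% called. Among the 8 genes of GATOR2 and KICSTOR 1 rose and 4 fell, or 62.5% called. Of all tested genes 59.6% were called, 29.7% upward and 29.9% downward, and nothing is read from counts in groups this small. The mTORC1 substrates Ulk1 (edgeR adjusted p = 0.555), Tfeb (0.333) and Lpin1 (0.844) did not pass.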

How the data were processed

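RNA-seq (BGISEQ-500) was carried out on 3 ctrl-Treg and 3 Sora-Treg libraries, grouped and numbered by their sample titles. Raw counts, with a gene symbol for each row, and FPKM values were deposited by the authors for the same 22939 genes. The methods of the study name Bowtie2, GRCm38 and an expectation-maximization step for FPKM. The submitters' processing notes name fastp, HISAT2, HTSeq, DESeq2, R 3.2.0 and GRCm39. These sources differ, and the strand setting and annotation release were not given in the sources used here, so no coordinates are printed except those of the RefSeq promoter windows (GRCm38.p6), and genes that overlap another are uncertain: 29 of the 46 members were overlapped by another RefSeq gene, 5 of them by one with over 5% as many counts. Each deposited FPKM equalled count over length over library total (largest relative difference of the implied length 1.64e-06), so it is no separate measurement.

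Counts were tested in R 4.3.3 with edgeR 4.0.16 (glmQLFit and glmQLFTest), with TMM scaling, filterByExpr, no covariate and Benjamini-Hochberg adjustment over 13463 genes, and called at an adjusted p under 0.05. The SE of a log2 fold change is the one its F statistic implies. FPKM served only for levels between genes, shares within families and ratios. The code was tested on simulated counts. Counts of replicate pairs differed by more than sampling noise (3.36 to 5.91 as chi-square divided by its degrees of freedom). The floor of 3 counts covers counting error only, while the SDs and SEs also hold the spread between libraries. Alternatives were other scalings and filters, DESeq2 1.42.0, robust fitting, a replicate block, leaving out libraries, and limma 3.58.1 on log2(FPKM + 1) and log2(FPKM + 0.1), with genes of a mean FPKM of at least 0.5 or unfiltered.

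The members, their roles and the list of other pathway genes were chosen with earlier results of these data known. Values in every library are given for members that passed with a log2 change of at least 0.5 and for the largest change in each role group; other pathway genes are named beyond 2-fold, and Ulk1, Tfeb and Lpin1 were named after their values were seen.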

Additional observations from a re-analysis of the deposited data

How the results depend on the processing

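Of the 30 members called, 19 kept their direction and their call under every alternative run, 11 lost the call under at least 1, and 1 of these, Rragc, reversed. Of the 15 not called, 12 passed under at least 1 of the 18 alternatives, 9 of them in the direction given in the report and 3 (Akt1, Gsk3a and Mtor) downward against a small positive value. The alternatives include the fit with ctrl-Treg 3 as its only ctrl-Treg library, where a call can be lost for want of replicates. Most reversals came with library size scaling, which also underlies FPKM and lowers the median of all genes. Under library size alone, log2 fold changes became -0.0697 for Akt1, -0.101 for Gsk3a, -0.0666 for Gsk3b, -0.0484 for Tsc2, -0.0911 for Mtor, -0.00793 for Mlst8 and -0.0166 for Rragc. On log2(FPKM + 1) and log2(FPKM + 0.1) they were -0.0681 and -0.0691 for Akt1, -0.0982 and -0.0997 for Gsk3a, -0.0639 and -0.0681 for Gsk3b, -0.0455 and -0.0498 for Tsc2, -0.0816 and -0.0891 for Mtor, -0.00488 and -0.00554 for Mlst8, -0.000451 and -0.000513 for Rraga and -0.0154 and -0.0158 for Rragc, and the unfiltered log2(FPKM + 1) gave the first value of each pair again. Under upper quartile scaling Gsk3a was -0.0231 and Mtor -0.0135, and with every gene of 1 count or more in some library Gsk3a was -0.000166. Leaving out 1 library gave values from -0.0796 to 0.0339 for Pdpk1 (above 0 without Sora-Treg 1), from -0.0080 to 0.0854 for Gsk3b (below 0 without Sora-Treg 2) and from -0.482 to 0.0291 for Deptor (above 0 without ctrl-Treg 2). Without ctrl-Treg 1 and 2 together Pdpk1 was 0.000109 and Akt1s1 0.0235. After the shift of the all-gene median (-0.12) was taken out, library size alone gave 0.0457 for Akt1, 0.0147 for Gsk3a and 0.0487 for Gsk3b. It then gave 0.0670 for Tsc2, 0.0243 for Mtor, 0.107 for Mlst8 and 0.0988 for Rragc. Each of these recentred values was positive, as in the main fit. For the other reversals the cause was not tested.

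Over the fits without 1 library, members called higher ranged from 14 to 17, lower from 12 to 15, beyond 2-fold from 2 to 3 (Pik3r3 without ctrl-Treg 1, Pik3r6 without Sora-Treg 3), and restraining members called lower from 4 to 8. In the same fits between 27% and 28.5% of all genes were called higher, and between 26.7% and 28.7% lower. Restraining members called higher were 3 on unfiltered log2(FPKM + 1), where 11.2% of all genes were called higher. All genes called higher were 2456, 2453 and 2577 on the FPKM scales, against 3994. Other pathway genes called higher were 13 under library size alone, where 21.3% of all genes were called higher. They were 12, 12 and 12 on the FPKM scales, where 21.9%, 21.8% and 11.2% of all genes were called higher. As shares of counts in place of FPKM, the differences in points were -5.45 for Pik3cd, 6.48 for Pik3cg, 6.75 for Pik3r1 and -6.25 for Pik3r2. DESeq2 called 14 members higher and 12 lower, where 16.7% of 22939 genes were called higher and 16.6% lower. Those shares also count genes of low counts, which the 29.7% and 29.9% of the main fit leave out.

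Replicate numbers are shared between the groups, but the labels do not say that they pair the samples, and deviations of same-numbered libraries correlated at only -0.03, 0.08 and 0.04, with 1 of 3 pairs correlating best with each other. With the replicate number as a block, 16 members rose and 16 fell, where 30.1% of all genes rose and 30.2% fell, 8121 in all. Rps6kb1 (edgeR adjusted p = 0.0442) and Rraga (0.0448) then passed. Depth limits Deptor, Pik3r3 and Pik3r6, each with fewer than 100 counts in every library.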
